A study of Mus musculus with 68 samples.

Results

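The globin genes and a small set of red cell genes were followed through the pharyngeal arches of mouse embryos. The set was chosen by gene symbol and holds 10 of the 21948 genes in the deposited table: the embryonic globins Hbb-y, Hbb-bh1 and Hba-x, the alpha globins Hba-a1 and Hba-a2, the adult beta globins Hbb-bs and Hbb-bt, and the red cell genes Gata1, Klf1 and Alas2. All 10 passed the filter on low values with 18428 genes in all, and none was at 0 in any of the 68 libraries. Pharyngeal arches are bulges of the embryonic neck, filled with mesenchyme and each crossed by an artery, and PA1 and PA2 are the foremost arch and the one behind it. Hoxa2 is a homeobox transcription factor gene that is active in PA2. Arches were dissected by hand from embryos at 4 stages between E9.0 and E10.5 (E for embryonic day), on a mixed CBA/Ca/J x C57BL/10 background that all groups share, and were either wildtype or labelled Hoxa2-/-. The wildtype PA1 groups held 5, 5, 5 and 3 libraries from E9.0 to E10.5, and the wildtype PA2 groups 4, 4, 5 and 3. For the label Hoxa2-/-, PA1 and PA2 each gave 4, 5, 5 and 3 libraries. In all there were 35 embryos, 33 of which gave both arches, and an embryo carries the same number in both, so a library is named below by its arch, label, stage and embryo.

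Blood at these stages comes from the yolk sac, where primitive erythroblasts are made and enter the circulation while they still have nuclei and still transcribe globin genes. Haemoglobin is a tetramer of alpha-like and beta-like chains. Primitive red cells use the zeta chain (Hba-x) beside the alpha chains, and the chains of Hbb-bh1 and Hbb-y on the beta side, and their globins switch as they mature, with Hba-x giving way to Hba-a1 and Hba-a2 and Hbb-bh1 giving way to Hbb-y. Hbb-bs and Hbb-bt encode the beta chains of definitive red cells of the fetal liver and the adult. Gata1 and Klf1 are transcription factors that switch on globin and other red cell genes, and Alas2 carries out the first step of heme synthesis in red cells.

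The beta-like members lie side by side on the minus strand of chromosome 7 and the alpha-like members on the plus strand of chromosome 11, in GRCm38 (mm10) coordinates of GENCODE M21. Hbb-bt spans chr7:103812524-103813996, Hbb-bs chr7:103826534-103828096, Hbb-bh1 chr7:103841637-103843164 and Hbb-y chr7:103851749-103853216. On chromosome 11, Hba-x spans chr11:32276400-32278116, Hba-a1 chr11:32283511-32284465 and Hba-a2 chr11:32296489-32297298. Gata1 (chrX:7959260-7978071) and Alas2 (chrX:150547375-150570638) are on the X chromosome and Klf1 (chr8:84901928-84905291) is on chromosome 8. The 150 bases before the RefSeq start of each gene (GRCm38.p6) were searched for 4 short motifs. This was done in 9 of the 10 members, and Hbb-bh1 was not matched. Any part of the motifs in the levels measured here was not tested. The sequences of 5 globins follow, 5′ to 3′ on the gene's strand, with the motif matches in capitals, so that the shared letters of embryonic, alpha and adult beta promoters can be compared.
Hbb-y: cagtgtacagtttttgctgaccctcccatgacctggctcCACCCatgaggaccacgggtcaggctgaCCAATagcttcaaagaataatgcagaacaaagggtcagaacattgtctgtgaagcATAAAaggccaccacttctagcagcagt
Hba-x: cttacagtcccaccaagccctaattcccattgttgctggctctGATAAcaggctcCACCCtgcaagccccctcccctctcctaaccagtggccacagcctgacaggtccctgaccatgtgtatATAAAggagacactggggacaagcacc
Hba-a1: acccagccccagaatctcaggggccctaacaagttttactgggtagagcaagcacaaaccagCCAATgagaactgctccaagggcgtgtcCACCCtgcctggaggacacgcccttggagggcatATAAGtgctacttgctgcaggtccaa
Hbb-bs: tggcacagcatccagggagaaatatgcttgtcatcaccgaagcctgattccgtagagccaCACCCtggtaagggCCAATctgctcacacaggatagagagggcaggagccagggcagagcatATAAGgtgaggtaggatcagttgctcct
Hbb-bt: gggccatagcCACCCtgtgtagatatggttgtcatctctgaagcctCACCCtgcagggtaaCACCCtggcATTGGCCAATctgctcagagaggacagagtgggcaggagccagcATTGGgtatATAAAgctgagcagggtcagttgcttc
These windows lie at chr7:103853208-103853357 (Hbb-y), chr11:32276450-32276599 (Hba-x), chr11:32283522-32283671 (Hba-a1), chr7:103827929-103828078 (Hbb-bs) and chr7:103813924-103814073 (Hbb-bt). CACCC, the core of the sites that Klf1 binds, was found on either strand in 9 of 9 windows, and in 37.4% of the 32851 mouse promoter windows of the same length. CCAAT, on either strand, was in 6 of 9 windows against 24.5% of all. GATAA, the letters that GATA factors bind, was in 3 of 9, those of Hba-x, Klf1 and Alas2, against 13.3% of all. ATAAA or ATAAG, on the gene's strand and within the last 40 bases, stood in all 6 globin windows and in no window of the other 3 genes, against 8.11% of all promoters. The 4 motifs have no letters in common where they were found, except that the CCAAT matches of Hbb-bt lie back to back on both strands. The window of Hba-a2 shares an unbroken run of 147 bases with that of Hba-a1, while the longest run shared by Hbb-bs and Hbb-bt is 14 bases. The transcripts are alike in the same pairs: 67.5% of the 50-base windows of Hba-a1 recur in Hba-a2 and 65.8% of those of Hbb-bs recur in Hbb-bt, whereas none of the 50-base windows of Hbb-y, Hbb-bh1 or Hba-x recurs in another globin. The split of reads within the pairs Hba-a1 and Hba-a2, and Hbb-bs and Hbb-bt, is therefore uncertain, and sums over each pair are used for the ratios. Inbred strains carry different haplotypes of the adult beta genes, and those of these embryos were not examined.

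Reads recovered per library ran from 8912251 to 20619153, and 3 reads, the limit that a count of 0 allows, are worth 0.14 to 0.328 CPM, the reads of a gene scaled to the library's total. The rarest member, Gata1, had 15 to 1501 reads in a library. PCR-amplified reads are not independent molecules, so this floor covers counting error only. Hoxa2 was at most 0.926 CPM in PA1 of either label, 20.2 to 63.3 CPM in wildtype PA2 and 16.8 to 147 CPM in PA2 of the libraries labelled Hoxa2-/-, so its RNA level does not separate the labels, and the deleted part of the gene is not given in the sources used here. In the 24 wildtype libraries of all stages but E10.0, Ski stood at 26.3 to 108 CPM, against 9.28 to 22.8 CPM in the 44 of wildtype E10.0 and of the label Hoxa2-/- at every stage. Irf2bp2 split them in the same way, at 26.6 to 82.6 against 7.36 to 19.1 CPM. The genotype label and this division of the libraries cannot be told apart at any stage but E10.0. Only E10.0 compares the labels on one side of it, and wildtype E10.0 was not tested against other wildtype stages: where its values stand beside theirs, stage and this division cannot be told apart. One library stood apart in blood content: PA2 of wildtype E9.0 embryo 2, called the blood-rich library below. The 7 globins together made up 7.19% of its column total, and between 0.0534% and 0.862% of that in the other 67 libraries.

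Among the globins, Hbb-y was the most abundant. Its median was 991 CPM over the 68 libraries, followed by Hbb-bh1 at 762, Hba-x at 590, Hba-a1 at 402 and Hba-a2 at 378 CPM. Hbb-bs and Hbb-bt stood far lower, at 19.8 and 16.8 CPM, so the beta side was almost wholly embryonic. Per kilobase of exon the median level was 1566 CPM for Hbb-y and 1244 for Hbb-bh1, and Hbb-y was the higher of the pair in 59 of 68 libraries. Hbb-bh1 exceeded Hba-x (629 CPM per kilobase) in 66 libraries, and Hba-x exceeded Hba-a2 (567) in 57. Hba-a2 stood above Hba-a1 (495) in all 68 on this scale, which turns their order in plain CPM and rests on the shorter annotated exons of Hba-a2. The adult genes followed at 25.8 CPM per kilobase for Hbb-bs and 23.9 for Hbb-bt, and their order held in 48 of 68 libraries. Of the red cell genes, Alas2 had the highest level, with a median of 14.5 CPM per kilobase, below Hbb-bt in 50 libraries. Klf1 stood at 5.58 and Gata1 at 2.20 CPM per kilobase, and the order Alas2, Klf1, Gata1 held in all 68. The neighbours Hbb-bs and Hbb-bt, and Hbb-bt and Alas2, are thus the ones whose order changed most often from library to library.

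In the blood-rich library every member was higher than in any other library. Hbb-y stood at 22642 CPM there, against a highest value of 3138 CPM in the other 67. Hba-x reached 15513 CPM against at most 1718 elsewhere, and Hbb-bh1 14894 CPM against at most 2001. The red cell genes were high there too, with Gata1 at 80.2 CPM against at most 16.6, Klf1 at 164 against at most 26.3, and Alas2 at 517 against at most 108. In bulk RNA, fewer red cells in a dissection and less of these RNAs per red cell cannot be told apart. Markers of other cells differed in that library too. The 12 heart muscle genes measured (Myl7, Actc1, Tnnt2 and others, none at 0 throughout) summed to 77.5 CPM there, to between 1339 and 1443 CPM in PA2 of the other 3 wildtype E9.0 embryos, and to between 24.5 and 56.4 CPM in wildtype PA1 of that stage. The 12 macrophage and leukocyte genes, none at 0 in every library of the group, summed to 42.0 CPM in it and to 3.09 to 13.8 CPM in the other 3 PA2 libraries. Their part in the results was not tested.

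PA2 was compared with PA1 at each stage and label with limma on log2(CPM + 1), and a gene was called at a Benjamini-Hochberg adjusted p under 0.05 over all genes. In wildtype E9.0 embryos, globin and red cell RNA was higher in PA2. Hbb-y stood at 435, 2241, 834, 478 and 997 CPM in PA1 of embryos 1 to 5, and at 1414, 22642, 885 and 1155 CPM in PA2 of embryos 1, 2, 4 and 5. In all 4 embryos with both arches PA2 had the higher value, although the groups overlap: PA1 of embryos 2 and 5 stood above PA2 of embryo 4. Klf1 stood at 7.05, 19.2, 11.6, 7.59 and 12.2 CPM in PA1 and at 26.3, 164, 17.7 and 13.5 CPM in PA2. Of the 10 members, 8 were called, all of them higher in PA2, where 18.7% of all genes were called in either direction. Their log2 differences ran from 1.23 for Gata1 to 1.66 for Hbb-bh1 (adjusted p 0.0126 to 0.036), and the median over the 10 members was 1.51 against -0.01 over all genes. Hbb-bs and Hbb-bt were not called. None was called without the blood-rich library, at log2 differences of 0.45 to 0.72 for the 8 genes (adjusted p 0.255 to 0.563), and in a fit of these groups alone none was either (adjusted p 0.109 to 0.249). Without PA1 of embryo 1 the count was 1, Klf1, and without PA1 of embryo 4 it was 3, and Gata1, Alas2 and Hbb-y were lost without PA1 of embryo 3, and Alas2 without PA1 of embryo 5.

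In E9.0 embryos labelled Hoxa2-/-, the same direction was seen and 1 of 10 members, Gata1, was called, where 24.6% of all genes were called. Gata1 stood at 5.27, 1.85, 1.89 and 5.93 CPM in PA1 of embryos 1 to 4 and at 7.93, 8.05, 16.6 and 8.95 CPM in PA2. The arches did not overlap, and the log2 difference was 1.32 ± 0.451 (SE, limma, adjusted p 0.0243). All 10 members had positive differences, from 1.02 to 1.33. The summed heart muscle genes stood at 137 to 1232 CPM in PA2 of this group and at 31.8 to 79.4 CPM in PA1, and their part was not tested. PA2 of embryo 3 carried 542 CPM of 17 yolk sac endoderm genes (Apoa1, Afp, Ttr and others, none at 0 throughout the group), against at most 24.9 CPM in PA2 of the other 3 embryos, and without the 3 libraries with over 100 CPM of these genes the adjusted p for Gata1 was 0.0966. The call was also lost without PA1 of embryo 2 or of embryo 3 (adjusted p 0.0917 and 0.0929) and in a fit of these groups alone (0.0515). Without the blood-rich library, which adds to the spread that all groups share, 5 members were called here: Gata1, Hba-x, Hba-a1, Hba-a2 and Alas2.

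At E9.5 the values ran the other way in embryos labelled Hoxa2-/-. Hbb-y stood at 637, 1738, 1728, 807 and 1045 CPM in PA1 of embryos 1 to 5 and at 234, 435, 1010, 367 and 497 CPM in PA2, lower in PA2 in each embryo. None of the 10 members was called (adjusted p 0.091 to 0.832), where 9.58% of all genes were, and the median log2 difference was -1.05. In the other 5 arch comparisons no member was called either. These were wildtype E9.5, E10.0 and E10.5, where 26.3%, 5.94% and 1.52% of all genes were called, and the label Hoxa2-/- at E10.0 and E10.5, with 4.23% and 1.37%. Of the 60 tests of members in these 6 comparisons, 7 had an unadjusted p under 0.05, all of them in E9.5 embryos labelled Hoxa2-/-, and edgeR called none. Without the blood-rich library 4 members were called lower in PA2 at E9.5 in the label Hoxa2-/-, Hbb-y, Hbb-bh1, Hba-a1 and Hba-a2 (adjusted p 0.0237 to 0.049). Because both arches of an embryo share its circulation, the fit was repeated with the embryo as a replicate block. That fit called 19 members over the 8 arch comparisons in place of 9. It called 9 in wildtype E9.0, where Hbb-bt was added (log2 difference 1.39, adjusted p 0.046), and 6 in E9.0 labelled Hoxa2-/-, namely Hba-x, Hba-a1, Hba-a2, Gata1, Klf1 and Alas2. In E9.5 labelled Hoxa2-/- it called 4, all lower in PA2: Hbb-y (-1.28, adjusted p 0.0291), Hbb-bh1 (-1.27, 0.0289), Hba-a1 (-1.15, 0.0401) and Alas2 (-1.04, 0.0418). With a separate term for each embryo 23 were called, among them 8 in E9.5 and 3 in E10.0 labelled Hoxa2-/-, all lower in PA2. In E9.0 labelled Hoxa2-/- that fit called 2, Hbb-bs and Hbb-bt, and none of the 6 named above, with Gata1 at an adjusted p of 0.0674. The shares of all genes given above are those of the main fit, and those of the alternative fits are not reported here. The summed level of the 10 members was higher in PA2 in 4 of 4 wildtype and 3 of 4 Hoxa2-/- labelled embryos at E9.0, and in 0 of 5 embryos labelled Hoxa2-/- at E9.5 and 0 of 5 at E10.0. Over all 33 embryos it was higher in PA2 in 12.

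The genotype labels were compared within each arch and stage. At E10.0, where both labels lie on the same side of the division of the libraries, no member was called. Hbb-y stood at 945, 1256, 1044, 987 and 1174 CPM in wildtype PA1 and at 791, 1066, 752, 2515 and 894 CPM in PA1 labelled Hoxa2-/-. The ranges overlap for all 10 members in both arches. In PA1 0 of 10 were called where 0% of all genes were, and in PA2 0 of 10 where 0.0814% were. The log2 differences, the label Hoxa2-/- minus wildtype, lay between 0.00 and 0.78 in PA1 and between -0.27 and 0.49 in PA2, with SE of 0.403 to 0.619, which sets how small a difference could be seen. At E10.5 none of the members was called, where 3.05% of all genes were in PA1 and 10.3% in PA2, and over these 4 comparisons 0 of the 40 member tests had an unadjusted p under 0.05 and edgeR called none.

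At E9.0 and E9.5 the adult beta globins were lower in the libraries labelled Hoxa2-/-, where the label cannot be told apart from the division of the libraries. Hbb-bs stood at 48.1, 228, 23.5, 84.9 and 50.6 CPM in wildtype PA1 at E9.0 and at 7.02, 7.61, 3.88 and 24.3 CPM in PA1 labelled Hoxa2-/-. In PA2 of that stage it stood at 130, 680, 95.6 and 111 CPM against 22.1, 14.7, 18.7 and 46.8 CPM, and these groups did not overlap. Hbb-bs and Hbb-bt were called lower in 4 of 4 comparisons. In PA1 at E9.0 they were 2 of 10 called members where 2.08% of all genes were called, with log2 differences of -2.77 and -2.48 (adjusted p 0.0121 and 0.0234). In PA1 at E9.5 they were 2 of 10 where 23.6% were, at -1.88 and -1.68 (Hbb-bt not by edgeR, adjusted p 0.0608), and in PA2 at E9.5 2 of 10 where 4.48% were, at -2.48 and -2.35. In PA2 at E9.0, 7 of 10 members were called lower where 14% of all genes were called: Hbb-bs at -2.86, Hbb-bt at -2.81, Hbb-y at -1.88, Hba-a2 at -1.76, Hba-a1 at -1.71, Hbb-bh1 at -1.66 and Alas2 at -1.34. In that comparison Alas2 was borderline, with a limma adjusted p of 0.0499, and its call was lost in 50 of 68 fits that left out 1 library. Without the blood-rich library only Hbb-bs and Hbb-bt were called there (-2.21 and -2.15, adjusted p 0.0359 and 0.0355), and the other 5 had log2 differences of -0.80 to -0.52 (adjusted p 0.298 to 0.499). In a fit of the compared groups alone no member was called in PA2 at E9.0, with adjusted p 0.134 for Hbb-bs, while both genes were called in the other 3 comparisons. The calls outside PA2 at E9.0 also depended on single libraries, and each was lost when 1 of 2 to 5 libraries was left out, for example PA1 of E9.5 embryo 1 labelled Hoxa2-/-, with 3.56 CPM of Hbb-bs (adjusted p 0.112 without it). Whether the genotype difference itself differed between the arches was tested directly: 0 of 40 member tests passed (lowest adjusted p 0.928, none with an unadjusted p under 0.05, and none by edgeR), where the share called over all genes was 0%, 0.0109%, 0.0163% and 0.038% in order of stage.

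Stages were compared within an arch and label. From E9.5 to E10.5 in wildtype embryos, Hbb-y rose and Hbb-bs fell in both arches. Hbb-y stood at 1112, 1013, 879, 726 and 1267 CPM in PA1 at E9.5 and at 2951, 2211 and 3138 CPM at E10.5, with a log2 difference of 1.48 ± 0.575 (SE, limma, adjusted p 0.034). In PA2 it went from 721, 1564, 532 and 710 CPM to 3009, 1855 and 2878 CPM, a log2 difference of 1.64 ± 0.601 (limma, adjusted p 0.0285). No E10.5 library overlapped the E9.5 range in either arch. Hbb-bs moved the other way, from 78.7, 40.4, 123, 84.7 and 43.2 CPM to 16.4, 19.5 and 20.1 CPM in PA1 (-1.81, limma adjusted p 0.0366). In PA2 it fell from 78.3, 94.9, 113 and 60.5 CPM to 22.9, 14.4 and 23.6 CPM (-2.03, limma adjusted p 0.0291). These 2 calls of 10 members stood beside 40.9% of all genes called in PA1 and 34.3% in PA2. Hbb-y and Hbb-bs kept their calls in a fit of the compared groups alone, which called 9 members in each arch. The share of all genes called in that fit is not reported here, so the 9 cannot be set against it. In the main fit each of the 4 calls was lost when 1 of 5 or 6 libraries was left out (adjusted p 0.0506 to 0.105). Without the blood-rich library Hba-a1 and Hba-a2 were also called higher at E10.5 in PA1 and Hba-x in PA2. From E9.0 to E9.5, wildtype PA1 had no called member where 6.73% of all genes were called.

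In wildtype PA2, 5 of 10 members were lower at E9.5 than at E9.0, where 6.68% of all genes were called. Klf1 went from 26.3, 164, 17.7 and 13.5 CPM to 4.53, 9.59, 5.69 and 6.53 CPM, without overlap, a log2 difference of -2.17 ± 0.468 (SE, limma, adjusted p 0.00266). Klf1 was still called without the blood-rich library (-1.40, adjusted p 0.0405). The other 4, Hbb-bh1 (-1.97), Hba-x (-1.76), Gata1 (-1.70) and Alas2 (-1.58), were not called without it, at -1.02 to -0.77 (adjusted p 0.147 to 0.328). In a fit of the compared groups alone none of the 5 was called (adjusted p 0.0887 to 0.224), whereas edgeR called 8 members. The share of all genes called by edgeR is not reported here. The summed heart muscle genes had a median of 1342 CPM in PA2 at E9.0 and of 179 CPM at E9.5, with 2 of 12 called lower, and their part was not tested.

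In embryos labelled Hoxa2-/-, the called members were higher at E9.5 than at E9.0 in PA1 and lower in PA2. Hbb-y in PA1 went from 331, 289, 158 and 642 CPM to 637, 1738, 1728, 807 and 1045 CPM, with a log2 difference of 1.81 ± 0.528 (SE, limma, adjusted p 0.0423), the only call of 10 members where 2.85% of all genes were called. The ranges overlap slightly, since the lowest E9.5 embryo was just below the highest E9.0 embryo. In PA2, Gata1 and Klf1 fell, 2 of 10 members where 16.9% of all genes were called. Gata1 went from 7.93, 8.05, 16.6 and 8.95 CPM to 1.52, 3.43, 9.07, 1.80 and 6.11 CPM (-1.22, limma adjusted p 0.0396), and Klf1 from 11.8, 12.2, 23.4 and 11.8 CPM to 1.93, 6.54, 11.3, 3.02 and 8.89 CPM (-1.24, limma adjusted p 0.0449). Neither was called without the 3 libraries rich in yolk sac genes (adjusted p 0.211 and 0.227) or by edgeR (0.0941 and 0.0948), and edgeR did not call Hbb-y in PA1 (0.0835). In a fit of the compared groups alone all 3 were lost (adjusted p 0.0857 for Hbb-y and 0.223 for Gata1 and Klf1), and each was lost when 1 of 4 to 7 single libraries was left out. With the embryo as a replicate block Alas2 was also called higher in PA1 (1.48, adjusted p 0.0452), and without the blood-rich library 5 members were: Hbb-y, Hbb-bh1, Hba-a1, Hba-a2 and Alas2. No member was called in the remaining comparisons of this label. From E9.5 to E10.0 the share of all genes called was 4.4% in PA1 and 4.57% in PA2, and from E10.0 to E10.5 it was 0.298% and 0.239%. In the 5 stage comparisons without a call, 0 of 50 member tests had an unadjusted p under 0.05, and edgeR called none.

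Ratios among the globins were taken within a library and averaged over the arches of an embryo. A ratio of this kind does not depend on the total globin RNA of a library. Hbb-bh1 relative to Hbb-y had a geometric mean of 0.797 in wildtype E9.0 embryos, 0.703 at E9.5 and 0.422 at E10.5. The E10.5 embryos stood at log2 ratios of -1.40, -1.22 and -1.11, below the E9.5 embryos at -0.982, -0.46, -0.125, -0.291 and -0.687, so Hbb-bh1 was low against Hbb-y in every E10.5 embryo. The log2 difference of -0.74 had an exact two-sided permutation p of 0.0357 and an adjusted p of 0.405 over the 24 ratio tests, so it did not pass. In embryos labelled Hoxa2-/- the ratio had geometric means of 1.00, 0.835, 0.744 and 0.731 from E9.0 to E10.5. At E9.0 these embryos spread from a ratio of 0.547 in embryo 3, the one with yolk sac RNA in PA2, to 1.44 in embryo 1. In embryo 3 the log2 ratio was -0.840 in PA1, which held 7.87 CPM of the yolk sac genes, and -0.903 in PA2. The part of yolk sac RNA in this ratio was not tested. At E10.0 the labels were close, at 0.731 in wildtype and 0.744 in Hoxa2-/- labelled embryos (exact permutation p 0.817). At E10.5 all 3 embryos labelled Hoxa2-/- had higher ratios than all 3 wildtype embryos, a log2 difference of 0.79, where the label cannot be told apart from the division of the libraries.

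**Figure D1:**
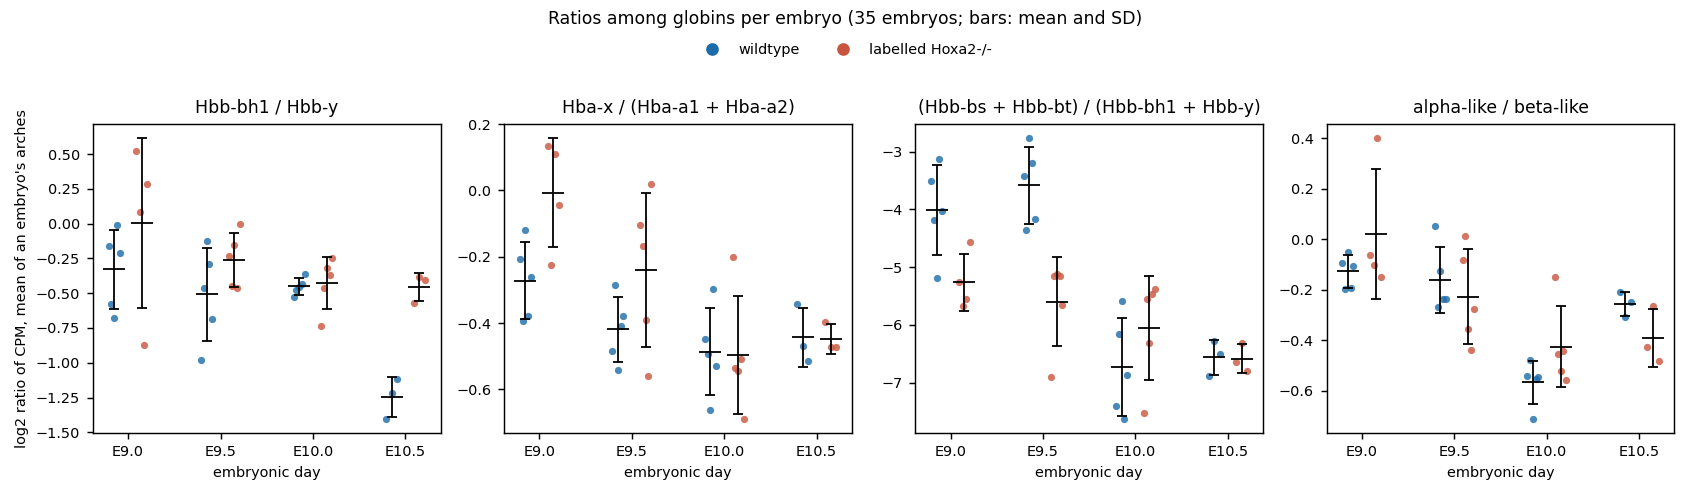
Log2 ratios among globins by embryo, with 1 point per embryo (mean of its arches), by label and stage, and the group mean as a line. Hbb-bh1 to Hbb-y is lowest in the 3 wildtype E10.5 embryos, at -1.40 to -1.11, and adult to embryonic beta is highest in wildtype E9.0 and E9.5.

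On the alpha side, Hba-x relative to the sum of Hba-a1 and Hba-a2 varied less. Its geometric mean was 0.828, 0.748 and 0.736 in wildtype embryos of E9.0, of E9.5 and of E10.5, and 0.995, 0.846, 0.709 and 0.733 in embryos labelled Hoxa2-/- from E9.0 to E10.5. None of the 6 comparisons of this ratio passed (exact permutation p 0.0635 to 0.905). At E10.0 the labels gave 0.714 and 0.709. The ratio of Hba-a1 to Hba-a2 hardly varied, with group means of 0.08 to 0.12 on the log2 scale.

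The adult genes Hbb-bs and Hbb-bt together were a small share of beta-like RNA in all embryos, and their ratio to the embryonic pair Hbb-bh1 and Hbb-y was the most variable one. In wildtype embryos its geometric mean was 0.0622, 0.0835, 0.00944 and 0.0106 from E9.0 to E10.5. Single E9.5 embryos stood at log2 ratios of -3.42, -4.36, -2.76, -3.20 and -4.17, and the E10.5 embryos at -6.89, -6.28 and -6.51. The groups lie well apart, with a ratio 0.127 times as high at E10.5. The exact permutation p was 0.0179, the smallest that 3 embryos against 5 allow, and the adjusted p was 0.405. In embryos labelled Hoxa2-/- the geometric means from E9.0 to E10.5 were 0.0261, 0.0207, 0.0151 and 0.0104, and none of these steps passed (exact permutation p 0.393 to 0.532). At E10.0 the labels overlapped, with 0.00944 in wildtype and 0.0151 in embryos labelled Hoxa2-/- (exact permutation p 0.254). At E9.5 no embryo labelled Hoxa2-/- reached the lowest wildtype embryo, a log2 difference of -2.02 that runs with the division of the libraries. The summed alpha-like members relative to the summed beta-like members had geometric means of 0.915, 0.894, 0.675 and 0.838 in wildtype embryos in order of stage, lowest at E10.0, and of 1.01, 0.854, 0.745 and 0.763 in embryos labelled Hoxa2-/-. The labels overlapped at E10.0 (exact permutation p 0.0714). Of the 24 ratio tests none had an adjusted p under 0.05, and groups of 3 to 5 embryos, with a smallest p of 0.0179 or 0.00794, gave a single ratio no way to pass that adjustment.

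The globin ratios in the arches of an embryo varied together, most closely for Hbb-bh1 to Hbb-y. They were not equal: adult to embryonic beta differed between arches by up to 1.77 on the log2 scale, in E10.0 embryo 5 labelled Hoxa2-/-. Over the 33 embryos with both arches, with each value centred on its label and stage, the log2 ratio of Hbb-bh1 to Hbb-y in PA1 and in PA2 had a Pearson r of 0.938 and a Spearman rho of 0.863. Each had a permutation p of 1e-05, the smallest that 100000 resamples can give, and 5e-05 after adjustment over 5 measures. Without the 2 embryos farthest from the median in PA1, r was 0.881. The other ratios followed: r was 0.735 for Hba-x to Hba-a1 plus Hba-a2, 0.678 for adult to embryonic beta, and 0.800 for alpha to beta, with rho of 0.682, 0.646 and 0.738. Their adjusted permutation p lay between 7.5e-05 and 0.000987, and r without the 2 farthest embryos was 0.646, 0.553 and 0.712. The summed level of the 10 members was shared less closely, with r of 0.548 and rho of 0.442 (adjusted permutation p 0.0113 and 0.0255) and r of 0.354 without 2 embryos. Within the wildtype E9.0, E9.5 and E10.5 embryos (n = 11) r was 0.833 for Hbb-bh1 to Hbb-y and 0.473 for Hba-x. There it was 0.406 for adult beta, 0.761 for alpha to beta and 0.800 for the summed level. Within the other 22 embryos r was 0.987, 0.808, 0.782, 0.806 and 0.409 in that order. The rho values were 0.764, 0.455, 0.391, 0.564 and 0.491 in the 11 embryos. In the 22 they were 0.963, 0.744, 0.724, 0.783 and 0.412. The 11 include the embryo with the blood-rich library.

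**Figure D2:**
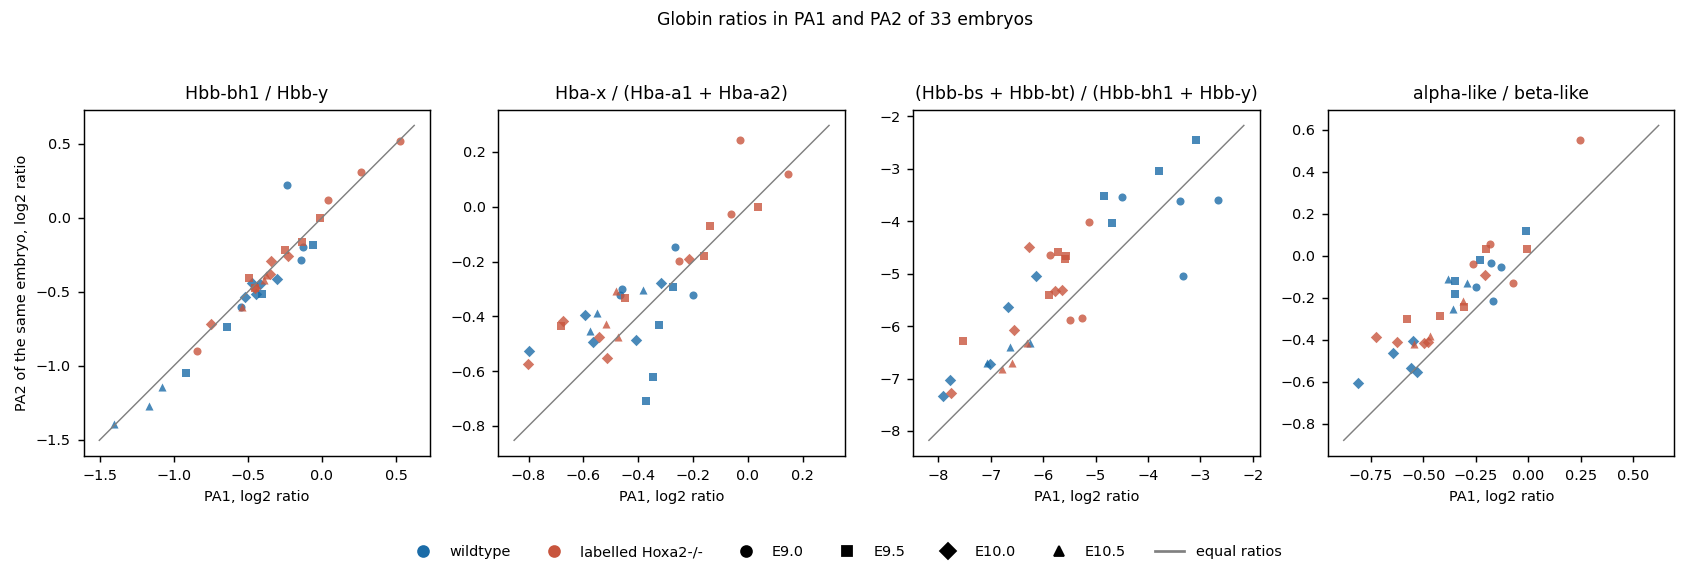
Log2 ratios in PA2 against PA1 of the same embryo for 33 embryos, with colours for label and the line of equality. Hbb-bh1 to Hbb-y lies close to the line, while alpha to beta lies above it in 30 of 33 embryos.

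Within an embryo, PA2 held slightly more alpha-like RNA per beta-like RNA than PA1. The log2 ratio of alpha to beta was 0.14 higher in PA2 on average (SD 0.0984, n = 33 embryos), and higher in PA2 in 30 of 33. The two-sided sign-flip permutation p was 1e-05, the smallest possible, and 4e-05 after adjustment over 4 ratios. The difference was 0.14 on each side of the division of the libraries, in 10 of 11 and 20 of 22 embryos. The adult beta genes were also relatively higher in PA2, by 0.46 on the log2 scale (SD 0.713), in 24 of 33 embryos (permutation test, adjusted p 0.00214). This was 0.18 in 7 of 11 embryos on the wildtype side and 0.59 in 17 of 22 on the other, and in wildtype embryos alone it did not pass (adjusted p 0.179). By group, the mean was -0.47 in wildtype E9.0, where PA2 was higher in 1 of 4 embryos, and -0.05 in E10.5 labelled Hoxa2-/-, with 0 of 3. Hba-x relative to Hba-a1 and Hba-a2 was 0.06 higher in PA2, in 22 of 33 embryos (adjusted p 0.0345), with -0.01 and 0.09 on the separate sides, and did not pass in wildtype embryos alone (adjusted p 0.533) or without the libraries rich in yolk sac genes (0.128). Hbb-bh1 to Hbb-y did not pass, at -0.02 and higher in PA2 in 10 of 33 embryos (adjusted p 0.341). Total reads were higher in PA2 in 9 of 33 embryos and the summed level in 12, and their part in these differences was not tested.

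Gata1, Klf1 and Alas2 were then set against the summed globins of the same library, as a description with no test. Per 1000 CPM of globin, wildtype PA1 held 2.24 CPM of Gata1 at E9.0 (lowest 1.96, highest 2.43), 1.46 at E9.5 and 1.07 at E10.5 (0.979 to 1.17). In wildtype PA2 the means were 2.02, 1.60 and 1.01 CPM, and in the blood-rich library 1.09, the lowest of its group. In PA1 labelled Hoxa2-/- Gata1 went from 2.66 through 1.86 and 1.37 to 1.34 CPM per 1000, and in PA2 from 3.48 through 2.22 and 1.70 to 1.36. So the mean of Gata1 relative to globin was highest at E9.0 in each arch and label. In wildtype PA2 the stages were not apart: E9.0 libraries ran from 1.09 to 3.00 and E9.5 libraries from 1.16 to 1.81. With 1 CPM added to Gata1, their mean log2 ratios to globin were -8.96 and -9.01. Klf1 also had its highest means at E9.0. Between E9.0 and E10.5 it went from 3.60 to 1.498 CPM per 1000 in wildtype PA1. In wildtype PA2 it went from 3.62 to 1.71. In the label Hoxa2-/- it went from 5.02 to 1.96 in PA1 and from 4.97 to 2.65 in PA2. Alas2 varied less, from 12.5 to 8.96 CPM per 1000 in wildtype PA1, from 10.48 to 7.89 in wildtype PA2, from 12.5 to 9.46 in PA1 labelled Hoxa2-/- and from 12.8 to 9.61 in PA2.

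**Figure D3:**
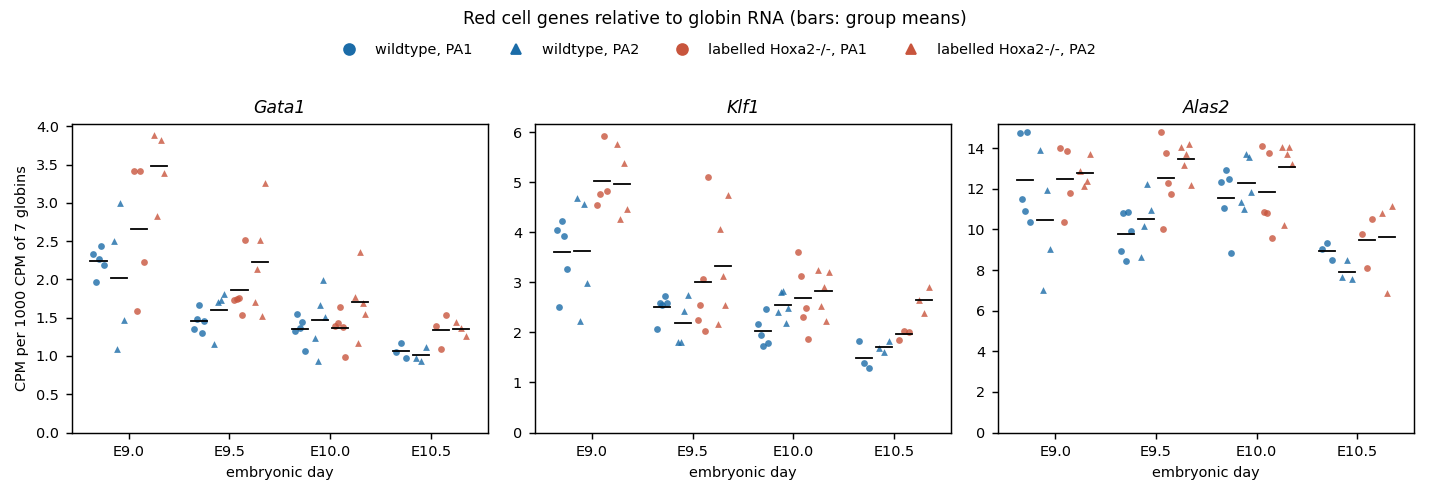
Gata1, Klf1 and Alas2 CPM per 1000 CPM of summed globin in each library, by arch, label and stage, with 1 point per library. Gata1 and Klf1 have their highest group means at E9.0, at 3.48 CPM per 1000 for Gata1 in PA2 labelled Hoxa2-/-, and Alas2 lies between 6.86 and 14.8 in all libraries.

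The members varied together from library to library. With each gene's log2(CPM + 1) centred on its group mean, the correlation with the log2 summed level of the 10 members over the 68 libraries was 0.995 for Hba-a1, 0.994 for Hba-a2, 0.990 for Hbb-y, 0.982 for Hba-x and 0.966 for Hbb-bh1. The sum contains these genes, and libraries from 1 embryo share its blood, so the values are descriptions. Alas2 (0.963), Klf1 (0.931) and Gata1 (0.929) were nearly as close, and Hbb-bt (0.724) and Hbb-bs (0.712) the least. Outside the set, the genes most like it included Acp5 (r 0.962), the biliverdin reductase gene Blvrb (0.955), Rhag of the Rh complex (0.945), the amino acid transporter gene Slc38a5 (0.934), Mgst3 (0.934), the blood group gene Kel (0.933), Ube2l6 (0.931) and the water channel gene Aqp3 (0.925). Their Spearman rho, without centring, ran from 0.75 to 0.922. Without the blood-rich library, 7 of these 8 stayed among the first 10, with r of 0.889 for Ube2l6 to 0.941 for Acp5, and Ermap took the place of Aqp3.

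Other red cell genes were read from 4 lists, leaving out the members, against a median log2 difference of about 0 over all genes (-0.01 in the first comparison below and 0.01 in the second). In the wildtype E9.0 arch comparison, where 18.7% of all genes were called, 11 of 21 membrane and skeleton genes were called higher in PA2 and 0 lower, with a median log2 difference of 1.01. They included Trim10 (1.31, adjusted p 0.0265) and Tmod1 (2.64, 1.44e-06), a tropomodulin that heart muscle also makes. Of 12 heme synthesis genes (median 0.71) 9 were higher, such as the ferrochelatase gene Fech (0.85, 0.00238) and the uroporphyrinogen synthase gene Uros (0.70, 0.000478), and 1, Alas1, the form of the enzyme used outside red cells, was lower (-0.28, 0.00709). Of 13 iron and haemoglobin handling genes (median 0.43) 7 were higher and 1 lower, and of 15 erythroid transcription factors (median 0.38) 7 were higher and 3, Lin28b, Sox6 and Ldb1, were lower. In wildtype PA2 from E9.0 to E9.5 where 6.68% of all genes were called, the same lists had 10, 8, 6 and 5 genes lower in the order given, and 1 heme synthesis gene, Alas1, higher. Their median log2 differences were -1.29, -0.81, -0.47 and -0.01. The heart muscle sums and the blood-rich library named above belong to both comparisons. At E10.0 none of the genes of these 4 lists was called between the labels in either arch, where 0% of all genes were called in PA1 and 0.0814% in PA2. From E9.5 to E10.5 in wildtype PA1, Bcl11a, which represses embryonic globin genes in red cells, rose by a log2 difference of 4.30 (adjusted p 1.69e-10) and Lin28b fell by 1.35 on the log2 scale (2.09e-07), but both are also expressed in tissues without blood and their cells were not separated.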

How the data were processed

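Bulk RNA of hand-dissected arches was extracted with TRIzol and turned into poly(A)-selected, PCR-amplified libraries (SMART-seq v4, Nextera XT) without molecular identifiers, per the labels' protocols. The authors deposited 1 table of CPM values, which were read as signal values: reads of a gene scaled to the library. The submitters' processing notes name mm10, bcl2fastq 2.18, TopHat2 2.1.1 and R 3.3.2, and the counting tool is not given in the sources used here. The steps between values showed that 100% of values are whole reads (within 0.01 read). Reads recovered ran from 8912251 to 20619153 per library.

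Groups came from the labels, and GENCODE M21 gave symbols for 21921 of 21948 genes. Genes with 1 CPM or more in 3 libraries (18428) were fitted on log2(CPM + 1) with limma 3.58.1 (R 4.3.3) over all 16 groups, with Benjamini-Hochberg adjustment and a threshold of 0.05. This scale understates the change of low genes. The design assumed CPM, and the test was kept for the recorded unit. Ratios were tested on embryos with exact permutation tests, and arches within embryos with 100000 sign flips or pairings (Python 3.11.15, numpy 2.4.6, scipy 1.17.1, pandas 2.3.3). edgeR 4.0.16 on recovered reads, other pseudocounts, filters, scalings, an embryo block and left-out libraries were alternatives. The series text gives both arches of an embryo the same number, so numbers pair samples: the median correlation of deviations was 0.347 over 33 pairs, 30 of them above 0.1, and the consensus correlation was 0.2195. Fits were tested on simulated data. The members and lists were chosen with earlier results of these data known. All 10 members are named, other list genes by how often and how strongly they were called, and similar genes are the 10 with the highest correlation with the summed members, among named genes with a mean of 5 CPM in some group, of which 8 are printed and the others are not reported here.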

Additional observations from a re-analysis of the deposited data

Results flagged for a closer look

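Of 168 sets of values, each 1 measure in 1 group of 4 or 5 libraries, 30 had 1 library far from the others by Dixon's ratio. For normally distributed values about 1 in 20, or 8.4, would be flagged. Gene values were taken as CPM without logs, and every flagged CPM was the highest of its group. The 30 flags are therefore no measure of an excess over 8.4. The values of different globins in a library are not independent, since they share its blood content.

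PA2 of wildtype E9.0 embryo 2 held 22642 CPM of Hbb-y, 14894 of Hbb-bh1, 15513 of Hba-x, 9778 of Hba-a1, 9621 of Hba-a2, 680 of Hbb-bs, 458 of Hbb-bt, 80.2 of Gata1, 164 of Klf1 and 517 CPM of Alas2, each far above the other 3 libraries. Its log2 ratio of adult to embryonic beta was -5.04, the lowest of the group. PA1 of the same embryo held 87.9 CPM of Alas2, also the highest of its group.

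PA1 of E10.0 embryo 4 labelled Hoxa2-/- was highest in its group for every member. It was flagged for 7: Hbb-y (2515 CPM), Hbb-bh1 (1968), Hba-x (1336), Hba-a1 (1000), Hba-a2 (948), Gata1 (10.9) and Alas2 (108). PA2 of E9.0 embryo 3 labelled Hoxa2-/-, which holds yolk sac endoderm RNA, stood out for Hba-x (1400 CPM), Gata1 (16.6) and Klf1 (23.4). PA2 of wildtype E9.5 embryo 2 was high for Hbb-bh1 (1093 CPM) and Hba-x (1116), and PA2 of E9.5 embryo 3 labelled Hoxa2-/- for Hba-a2 (446 CPM) and Alas2 (49.5). Gata1 was high in PA1 of wildtype E10.0 embryo 2, at 5.73 CPM.

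Among the ratios, Hba-x to Hba-a1 plus Hba-a2 was high in PA2 of wildtype E9.0 embryo 1, at -0.146 on the log2 scale. Adult to embryonic beta was low in PA1 of E9.5 embryo 1 labelled Hoxa2-/-, at -7.53. Alpha to beta was high in PA2 of E10.0 embryo 1 labelled Hoxa2-/-, at -0.094. No difference between the arches in the effect of the label was called for a member.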

How the results depend on the processing

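Over the 34 calls of a member, 2729 alternative values had no change of direction, and 221 were no longer past the threshold. 3 calls, Hbb-bs and Hbb-bt between labels in PA2 at E9.0 and Klf1 in wildtype PA2 from E9.0 to E9.5, were kept when any single library was left out, and none was kept in every alternative. The 9 calls between arches became 19 with the embryo as a replicate block, 23 with a separate term for each embryo, and 0 in a fit of the compared groups alone. The shares of all genes called in these and the other alternative fits are not reported here. The block left the 13 calls between labels at 13, the 0 interaction calls at 0, and moved the 12 stage calls to 13. The calls between labels became 6 in a fit of the compared groups alone and 8 without the blood-rich library. Leaving out 1 library at a time gave 2 to 12 calls between arches, 8 to 15 between labels, 0 in the interaction and 7 to 16 between stages. The arch count was 2 without PA1 of wildtype E9.0 embryo 1 and 4 without embryo 4. The label count was 8 without PA2 of wildtype E9.0 embryo 2 or of E9.0 embryo 1 labelled Hoxa2-/-, and the stage count 7 without PA2 of wildtype E9.5 embryo 1 or embryo 5. The cause was not tested.

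The ratio tests between stages or labels could hardly pass at these numbers of embryos, so their alternatives say nothing of stability. Small uncalled differences changed sign. Adult to embryonic beta in wildtype E9.5 minus E9.0 was -0.0991 in PA1 alone (0.425 over both arches), and in the label Hoxa2-/- it was 0.242 by medians (-0.335 by means). In PA2 alone, Hba-x to Hba-a1 plus Hba-a2 in wildtype E10.5 minus E9.5 was 0.132, and alpha to beta in wildtype E9.5 minus E9.0 was 0.0633. Between labels at E10.0 the Hba-x ratio was 0.0109 without the libraries rich in yolk sac genes, and Hbb-bh1 to Hbb-y in PA2 minus PA1 was 0.000811 in embryos labelled Hoxa2-/-. 3 PA2 minus PA1 values no longer passed: in wildtype embryos alone 0.0269 for the Hba-x ratio and 0.358 for adult beta, and 0.0440 for the Hba-x ratio without the yolk sac libraries. With 1 embryo left out, Hbb-bh1 to Hbb-y ranged from -0.103 to 0.0322 in E10.5 minus E10.0 labelled Hoxa2-/- and from -0.021 to 0.101 between labels at E10.0. The Hba-x ratio ranged from -0.0832 to 0.0383 between labels at E10.0 and from -0.0728 to 0.0129 in wildtype E10.5 minus E9.5, and alpha to beta from -0.0293 to 0.103 in E10.5 minus E10.0 labelled Hoxa2-/-. The setting without the yolk sac libraries was chosen after seeing the data. Gata1, with a median of 86.5 reads per library, is the member whose values depth limits most.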

Other observations

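The adult genes differed in their proportion. Hbb-bs relative to Hbb-bt had a geometric mean of 1.57, 1.51, 0.994 and 0.951 in wildtype embryos of the 4 stages in order, and of 1.40, 1.38, 1.21 and 0.785 in embryos labelled Hoxa2-/-. This ratio was chosen after its values were seen and has no test, and near-identical stretches make the split of reads uncertain.

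Of the globin genes outside the set, Hbb-bh0 was lower in PA2 labelled Hoxa2-/- at E9.0, with a log2 difference of -2.65 (limma, adjusted p 0.0106). The groups overlapped: labelled embryo 3 stood at 26.8 CPM, above every wildtype library but the blood-rich one, at 123 CPM. The other labelled embryos stood at 0.329 CPM or less. The label cannot be told apart from the division of the libraries at this stage. Hbq1b, the theta globin gene, was higher in PA2 than in PA1 of wildtype E9.0 embryos (1.02, adjusted p 0.0203) and lower in PA2 at E9.5 than at E9.0 (-1.23, adjusted p 0.0205). All 3 comparisons hold the blood-rich library. Several transcription factors used in blood were called from E9.5 to E10.5 in both wildtype arches: Myb (1.35 in PA1 and 1.39 in PA2) and Runx1 (1.62 and 2.102) rose, and Lmo2 (-1.02 and -0.86) fell, where 40.9% of all genes were called in PA1 and 34.3% in PA2. Over the same interval in PA2, 12 of 12 macrophage and leukocyte genes were called higher and 10 of 14 endothelial genes lower.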
